A study of Homo sapiens with 9 samples.

Results

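The genes described here are 9 diagnostic and prognostic markers of chronic lymphocytic leukemia (CLL): MS4A1, FCER2, CD5, CD200, ROR1, CD38, ITGA4, ZAP70 and LPL. They were chosen by name, matched by gene symbol and found among the 59050 gene symbols of the count table. RNA was sequenced from 9 samples of MEC1, an established B cell line derived from a patient with CLL, in 3 groups of 3 samples. The 2D group was cultured conventionally and has no time point in the labels. The 3D_7d and 3D_14d groups were cells of the same line printed within a hydrogel scaffold, crosslinked with calcium chloride and harvested at 7 or 14 days. All 3 groups come from 1 cell line. The titles of all 9 samples also carry the letters PGK, which the labels do not explain, and no agent is named for any group. RNA of the scaffolds was extracted with TRIzol, treated with DNase I and passed through a column. RNA of the 2D cultures was extracted on the column alone, with DNase among its washes. Culture format and extraction therefore cannot be told apart in any comparison with 2D. The extraction was the same for both 3D groups. Nothing in the sources used here says that the samples of a group came from separate cultures, and the p-values measure the spread between these samples, which may be technical.

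CLL is a disease of mature B lymphocytes, and it is recognised by the proteins these cells carry on their surface. MS4A1 encodes CD20, a membrane protein of B cells and the target of rituximab, and FCER2 encodes CD23, the low-affinity receptor for IgE. CD5 is a surface glycoprotein of T cells that also marks CLL cells, CD200 is a membrane ligand that dampens myeloid cells through its receptor, and ROR1 is a receptor for WNT5A. The remaining genes are read for prognosis, where high levels accompany a more aggressive course. CD38 is an enzyme that degrades NAD, ITGA4 encodes CD49d, the alpha chain of an integrin that holds lymphocytes to VCAM1 and fibronectin, ZAP70 is a tyrosine kinase of the T cell receptor pathway, and LPL encodes lipoprotein lipase.

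Promoter sequences are shown for 4 markers chosen by unlike criteria. CD38 and FCER2 were both called higher in 3D_14d than in 2D. ITGA4 and CD200 were lower in each 3D sample than in each 2D sample, and were called only at 14 and only at 7 days. The samples did not overlap between 3D_7d and 2D for 64.6% of all genes tested, and between 3D_14d and 2D for 49.7%. They are RefSeq windows of GRCh38.p14 that run from 250 bases before to 50 bases after an annotated start, and a window was found for 6 of the 9 markers. Motifs of 4 factors or factor families active in B cells were searched on both strands: the octamer ATGCAAAT of the POU2F2 family, the PU.1 box GAGGAA, the STAT6 element TTCNNNNGAA and the E-box CACGTG. Of 27305 RefSeq promoters of the same length, 1.80%, 27.6%, 6.37% and 7.43% held them. Capitals mark a match. The window of CD38, at chr4:15778078-15778377 on the plus strand, and that of ITGA4, at chr2:181457136-181457435 on the plus strand, held none of the 4. ITGA4 as counted begins at 181457207, inside its window, so much of this window is not upstream of the counted gene. The start used for ITGA4 lies 179 bases from the nearest counted exon edge, against 0 for CD38, 15 for FCER2 and 0 for CD200. The window at the first start of FCER2, at chr19:7702082-7702381 on the minus strand, held 1 STAT6 element that begins 3 bases before the start. The window of CD200, at chr3:112332906-112333205 on the plus strand, held 1 PU.1 box that begins 58 bases before the start. No match overlapped another, and a match describes these letters only.
CD38: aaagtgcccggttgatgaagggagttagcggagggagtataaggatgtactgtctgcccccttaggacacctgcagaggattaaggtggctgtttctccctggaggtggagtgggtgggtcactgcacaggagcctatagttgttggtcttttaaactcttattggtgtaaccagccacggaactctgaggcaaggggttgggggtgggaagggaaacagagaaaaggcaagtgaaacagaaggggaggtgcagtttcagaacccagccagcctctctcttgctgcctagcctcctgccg
FCER2: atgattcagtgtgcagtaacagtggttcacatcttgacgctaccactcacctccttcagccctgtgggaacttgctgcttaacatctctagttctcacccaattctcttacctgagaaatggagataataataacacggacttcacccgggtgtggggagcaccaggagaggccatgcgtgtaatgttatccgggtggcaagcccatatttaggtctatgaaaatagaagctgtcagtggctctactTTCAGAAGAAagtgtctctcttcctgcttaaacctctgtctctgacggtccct
ITGA4: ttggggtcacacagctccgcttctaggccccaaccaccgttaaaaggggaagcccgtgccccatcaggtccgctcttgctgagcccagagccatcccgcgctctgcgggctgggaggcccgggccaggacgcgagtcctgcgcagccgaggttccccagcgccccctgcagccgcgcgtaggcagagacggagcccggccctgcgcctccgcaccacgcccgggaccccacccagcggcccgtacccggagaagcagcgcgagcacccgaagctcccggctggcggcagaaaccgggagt
CD200: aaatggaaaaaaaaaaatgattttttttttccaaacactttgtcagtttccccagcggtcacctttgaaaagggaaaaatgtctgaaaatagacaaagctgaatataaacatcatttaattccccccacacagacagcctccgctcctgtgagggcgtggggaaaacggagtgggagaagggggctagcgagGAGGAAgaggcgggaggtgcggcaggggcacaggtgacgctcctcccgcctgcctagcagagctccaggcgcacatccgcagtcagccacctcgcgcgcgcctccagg

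The counts of a sample summed to 54662799 at the least and 85968686 at the most. Replicate 1 of 3D_14d stood apart from the other samples of its group, with a chi-square statistic per gene of 305 and 253 against them, compared with 155 between the other pair and at most 81.9 between any samples of another group. Results at 14 days are therefore also given without it for several genes, and for some others its own value is shown. Markers of cell types were examined in the same libraries as CPM, the counts of a gene per 1e6 counts of its library after scaling with TMM factors. The summed CPM of 6 B cell markers was 2350 to 2450 in 2D, 2355 to 2660 in 3D_7d and 3171 to 4170 in 3D_14d, so the cells carried the transcripts of the labelled lineage. Of 11 T cell markers 4 passed the filter on low counts, and the whole list summed to 422 to 496, 644 to 685 and 715 to 1019 CPM, of which TRAC held 332 ± 22.4, 472 ± 14.2 and 649 ± 107 (SD, n = 3). TRBC2 held 121 ± 14.2, 191 ± 17.5 and 230 ± 62 CPM, and CD28 held 1.03 ± 0.738, 1.92 ± 0.261 and 1.69 ± 0.55. Of the CD3 chains of the T cell receptor complex, CD3D and CD3G had at most 2 and 3 reads in any sample, and CD3E had 43 to 93 reads in 2D, 10 to 15 in 3D_7d and 13 to 47 in 3D_14d. CD7 went from 3.43 ± 0.139 CPM in 2D to 0.177 ± 0.147 in 3D_7d and 1.02 ± 0.561 in 3D_14d. Of 5 NK cell markers 4 passed, and the list summed to 14.9 to 18.1 CPM in 2D, 92.5 to 129 in 3D_7d and 216 to 418 in 3D_14d, with NCAM1 at no more than 18 reads in a sample. GNLY held most of this sum, with 13.3 ± 1.59, 113 ± 21.2 and 288 ± 105 CPM. KLRD1 had 0.551 ± 0.279, 2.30 ± 0.182 and 4.69 ± 1.15 CPM, KLRF1 1.41 ± 0.190, 0.908 ± 0.158 and 2.81 ± 1.38, and NKG7 1.65 ± 0.134, 0.423 ± 0.461 and 1.08 ± 0.469. None of 6 myeloid markers passed, their sum was at most 0.932 CPM, and LYZ and S100A8 had at most 2 and 1 reads. CD68 had 0 reads in every sample, but exons of other genes cover 100% of its exonic bases. Its level can therefore not be read from these counts. The 5 stromal markers, 2 of which passed, summed to 10.2 to 11.4, 2.29 to 5.19 and 2.62 to 8.83 CPM.

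Levels of different markers were ordered on the TPM scale, which divides by the length of each gene's exons. MS4A1 was the highest of the 9 in every group, with 579 ± 59.0 TPM in 2D, 930 ± 117 in 3D_7d and 577 ± 163 in 3D_14d (SD, n = 3), and 98.3%, 99.4% and 98.5% of the 13463 genes tested lay below it. FCER2 followed with 168 ± 5.84, 158 ± 39.9 and 207 ± 21.8 TPM. CD200 and ITGA4 took the next places and overlapped each other in all 3 groups. CD200 had 42.9 ± 1.36, 24.0 ± 4.08 and 22.3 ± 10.7 TPM, and ITGA4 had 42.3 ± 4.49, 28.4 ± 4.58 and 20.0 ± 8.63 TPM. CD38 came below them in mean with 12.8 ± 1.08, 12.6 ± 2.59 and 17.5 ± 1.31 TPM, and it overlapped both CD200 and ITGA4 in 3D_14d. ZAP70 was near the bottom of the genes tested, at 1.21 ± 0.235, 0.456 ± 0.523 and 0.848 ± 0.382 TPM. CD5, ROR1 and LPL were lower still in mean, with CD5 at 0.282 ± 0.217, 0.0535 ± 0.0602 and 0.0420 ± 0.0360 TPM. These 3 could not be put in a full order, since each overlapped its neighbour in every group. In 2D alone, each CD5 value (at least 0.0854 TPM) lay above each LPL value (at most 0.0364 TPM). In 3D_7d, ZAP70 also overlapped CD5. TPM was not scaled between libraries. It is used here to order genes within a group and for 1 ratio of genes within a sample, and single genes are compared between groups by CPM.

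In number, 6 of the 9 markers exceeded 1 CPM in at least 3 samples and were tested with all other genes in 1 edgeR quasi-likelihood model, and CD5, ROR1 and LPL did not. Fewer cells of a kind and less RNA per cell cannot be told apart in these bulk samples. A gene was called at an adjusted p of at most 0.05. Between 3D_7d and 2D, MS4A1 was called higher and CD200 lower, 1 marker in each direction, while 43.4% of all genes tested were called, 22.2% higher and 21.2% lower. Between 3D_14d and 2D, CD38 and FCER2 were called higher and ITGA4 lower, while 36.2% of all genes were called, 19.0% higher and 17.2% lower. Between 3D_14d and 3D_7d, CD38 and FCER2 were called higher and MS4A1 lower, while 28.1% of all genes were called, 14.5% higher and 13.6% lower. The markers called were thus 2, 3 and 3 of 6, and nothing particular to them is read from counts of this size. The samples of the groups did not overlap for 3, 5 and 3 of the 6 markers in these comparisons, and for 64.6%, 49.7% and 39.3% of all genes tested. The median log2 fold change of the 6 was -0.17, 0.13 and 0.32, and that of all genes was -0.0040, 0.02 and -0.0013. The comparisons with 2D share its 3 samples.

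**Figure D1:**
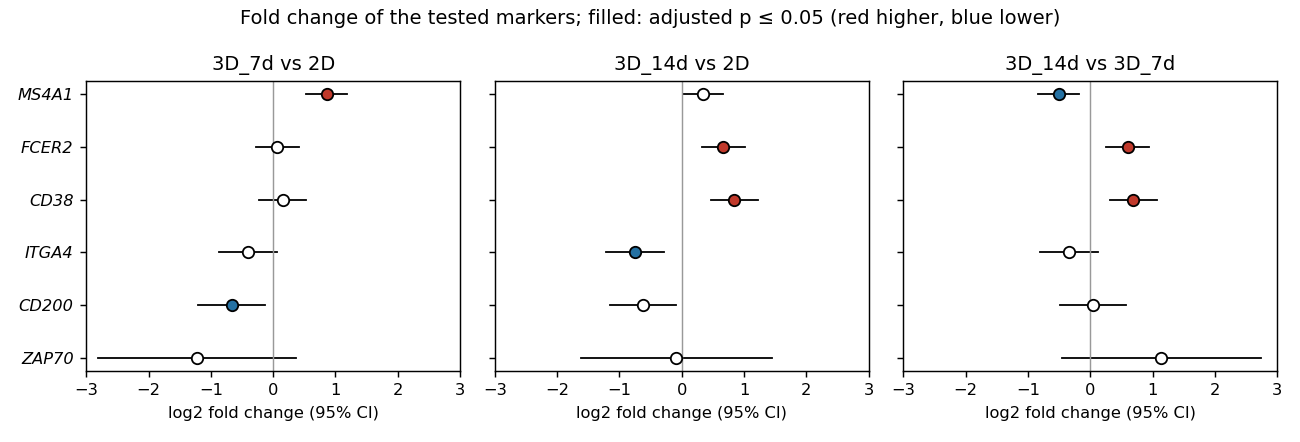
Log2 fold change of the 6 tested markers with its 95% confidence interval (x axis) in 3 panels, for 7 days against 2D, for 14 days against 2D and for 14 against 7 days, with filled points for an adjusted p of at most 0.05. MS4A1 is to the right of 0 at 7 days, CD38 and FCER2 are to the right at 14 days in both of its comparisons, and the interval of ZAP70 spans 0 in all 3.

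MS4A1, on GRCh38 chr11:60455809-60470760 (plus strand), rose at 7 days and stood lower again at 14 days. Its levels were 785, 853 and 879.5 CPM in the 2D samples, 1666, 1518 and 1375 in 3D_7d and 892, 1080 and 1228 in 3D_14d. Each 3D sample was above each 2D sample, and the 3D_14d samples were all below those of 3D_7d. The mean was 839 ± 48.8 CPM in 2D, 1520 ± 145 in 3D_7d and 1070 ± 168 in 3D_14d. The rise at 7 days was 1.81-fold (log2 fold change 0.86, SE 0.15, adjusted p = 0.00069, edgeR), and the log2 fold change from 7 to 14 days was -0.51 (SE 0.15, adjusted p = 0.0232). Against 2D, the difference at 14 days was 0.35 on the log2 scale, with a 95% confidence interval of 0.02 to 0.67, and missed the threshold (adjusted p = 0.0859). Without replicate 1 of 3D_14d it was 0.47 (adjusted p = 0.0115) and the fall from 7 to 14 days was -0.38 on the log2 scale (adjusted p = 0.0437). The fall was no longer called without replicate 1 or without replicate 2 of 3D_7d (adjusted p = 0.0702 and 0.0756).

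FCER2, on GRCh38 chr19:7688758-7702146 (minus strand), was higher at 14 days and not distinguishable from 2D at 7 days. The 2D samples had 130, 119 and 111 CPM, those of 3D_7d 158, 111 and 108, and those of 3D_14d 197, 192 and 182. All 3D_14d samples lay above all others, and the 3D_7d samples lay on both sides of the 2D values. The means were 120 ± 9.50, 126 ± 27.8 and 190 ± 7.64 CPM. FCER2 rose 1.59-fold over 2D at 14 days (log2 fold change 0.67, SE 0.16, adjusted p = 0.00625), and 1.51-fold over 3D_7d (0.60, SE 0.16, adjusted p = 0.0153). At 7 days the log2 difference from 2D was 0.07, with an interval of -0.28 to 0.41 (adjusted p = 0.754). The rise from 7 to 14 days was no longer called without replicate 2 or without replicate 3 of 3D_7d (adjusted p = 0.0683 and 0.0656).

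CD38, on GRCh38 chr4:15778328-15853232 (plus strand), followed a course like that of FCER2. It measured 27.98, 31.7 and 29.0 CPM in the 2D samples, 39.1, 31.6 and 27.8 in 3D_7d and 63.4, 45.8 and 49.99 in 3D_14d. The 3D_14d samples were again above all others, replicate 1 most of all, and the 3D_7d samples overlapped those of 2D. The means were 29.6 ± 1.93, 32.8 ± 5.72 and 53.0 ± 9.22 CPM. CD38 rose 1.79-fold over 2D at 14 days (log2 fold change 0.84, SE 0.17, adjusted p = 0.00277), and 1.61-fold over 3D_7d (0.69, SE 0.17, adjusted p = 0.0119). At 7 days the log2 difference from 2D was 0.15, with an interval of -0.23 to 0.53 (adjusted p = 0.508). Without replicate 1 of 3D_14d the rise over 2D was 0.70 on the log2 scale (adjusted p = 0.00372), and the rise from 7 to 14 days was not called without replicate 3 of 3D_7d (adjusted p = 0.0524). The summed NK cell markers, mostly GNLY, also went up from group to group, while NKG7 was lower in 3D_7d than in 2D (log2 fold change -1.96, adjusted p = 0.0317). The part of these markers in the results for CD38 and FCER2 was not tested.

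ITGA4, on GRCh38 chr2:181457207-181538940 (plus strand), was lower in 3D, and the test called it at 14 days. The 2D samples had 118, 135 and 131 CPM, those of 3D_7d 109, 98.2 and 83.5, and those of 3D_14d 48.6, 83.3 and 96.8. Each 3D sample was below each 2D sample, and replicate 1 of 3D_14d was the lowest by far. The means were 128 ± 9.18, 96.9 ± 12.8 and 76.2 ± 24.8 CPM. ITGA4 was 1.68-fold lower than in 2D at 14 days (log2 fold change -0.75, SE 0.21, adjusted p = 0.0161). At 7 days the log2 difference was -0.40, with an interval of -0.87 to 0.06 (adjusted p = 0.144), and from 7 to 14 days it was -0.35 (adjusted p = 0.241). Without replicate 1 of 3D_14d both comparisons with 2D were called, at -0.42 (adjusted p = 0.0131) for 7 days and -0.50 (adjusted p = 0.0130) for 14 days. Exons of CERKL on the opposite strand cover 21.4% of the exonic bases of ITGA4, and the library kit does not keep the strand. The other 8 markers share no exonic base with another gene.

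CD200, on GRCh38 chr3:112333156-112362812 (plus strand), was lower in 3D, and the test called it at 7 days by a narrow margin. Its values were 42.1, 37.9 and 37.2 CPM in 2D, 25.3, 28.1 and 20.4 in 3D_7d and 15.1, 26.8 and 34.0 in 3D_14d. Each 3D sample was below each 2D sample, and the 3D_14d samples were spread over a wider range than those of the other groups. The means were 39.1 ± 2.65, 24.6 ± 3.87 and 25.3 ± 9.55 CPM. CD200 was 1.59-fold lower than in 2D at 7 days (log2 fold change -0.67, SE 0.25, adjusted p = 0.0424). At 14 days the difference was -0.63 on the log2 scale, with an interval of -1.16 to -0.10, and missed the threshold (adjusted p = 0.0619). The 3D groups differed by 0.04 on the log2 scale (adjusted p = 0.914). The call at 7 days was lost in 7 of 17 alternative fits, with an adjusted p of up to 0.119, among them those without any 1 of the 2D replicates, without replicate 1 or 3 of 3D_7d and without replicate 2 of 3D_14d. Without replicate 1 of 3D_14d the difference at 14 days was -0.36 (adjusted p = 0.112).

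**Figure D2:**
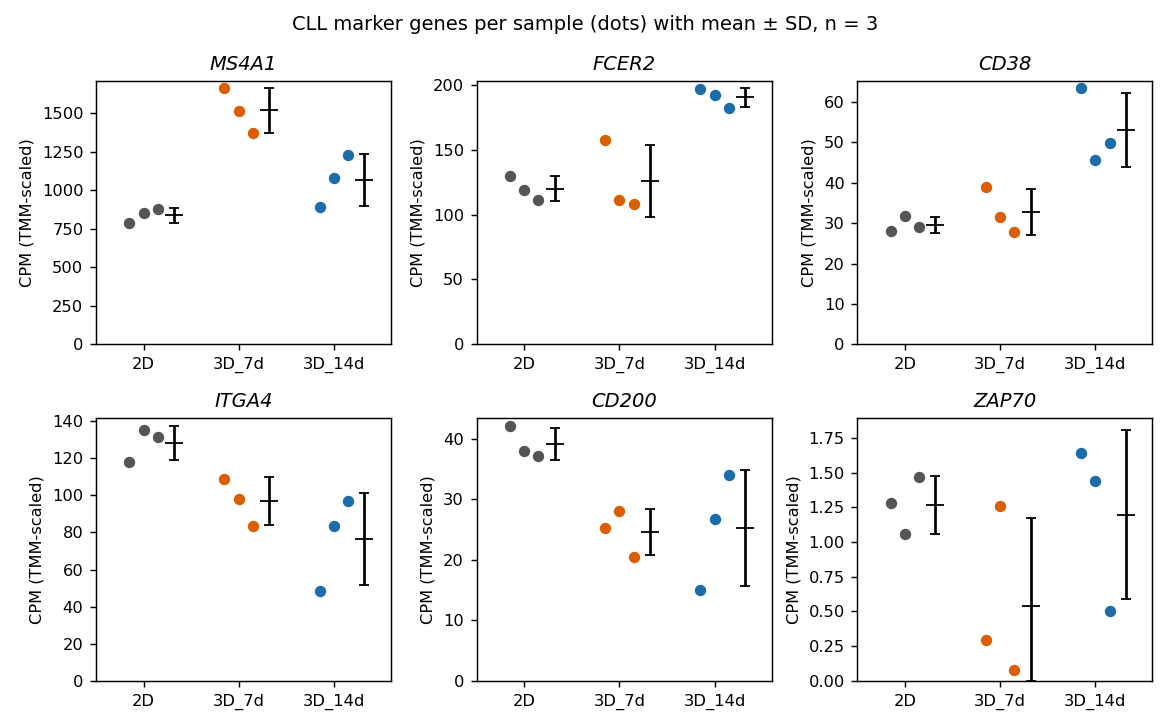
TMM-scaled CPM (y axis, starting at 0) of the 6 tested markers in each sample (dots) of 2D, 3D_7d and 3D_14d (x axis), with the group mean and SD (n = 3, bars cut at 0). The 3D_7d samples of MS4A1 lie between 1375 and 1666 CPM, above all others, the 3D_14d samples of CD38 and FCER2 lie above all others, and ITGA4 and CD200 lie below 2D in every 3D sample.

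ZAP70, on GRCh38 chr2:97713560-97739860 (plus strand), was detected at a low level in every sample. It had 78, 98 and 112 reads in the 2D samples, 17, 69 and 4 in 3D_7d and 89, 76 and 28 in 3D_14d. These correspond to 1.28, 1.06 and 1.47 CPM in 2D, 0.293, 1.26 and 0.0758 in 3D_7d and 1.64, 1.44 and 0.502 in 3D_14d. The samples within each 3D group differed widely, and both 3D groups overlapped 2D. The log2 difference from 2D was -1.22 at 7 days (interval -2.81 to 0.37, adjusted p = 0.196) and -0.08 at 14 days (interval -1.62 to 1.45, adjusted p = 0.936), and both intervals span 0. Without replicate 2 of 3D_7d the difference at 7 days was -2.79 (adjusted p = 0.0104), and that between 14 and 7 days was 2.69 (adjusted p = 0.0252).

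CD5, ROR1 and LPL were close to the limit of detection, which was set at 3 reads per sample and amounted to 0.0323 to 0.0569 CPM. CD5, on GRCh38 chr11:61102489-61127852, had 7, 62 and 23 reads in the 2D samples, 10, 1 and 2 in 3D_7d and 2, 2 and 7 in 3D_14d. ROR1, on GRCh38 chr1:63774017-64181498, had 3, 41 and 8 reads in 2D, 3, 1 and 4 in 3D_7d and 12, 4 and 6 in 3D_14d. Most of the 2D reads of both genes came from replicate 2, the deepest library, and the other 2D samples of ROR1 lay within the range of the 3D samples. Scaled for depth, replicate 2 of 2D still had 0.667 CPM of CD5, against 0.115 and 0.302 in replicates 1 and 3. For ROR1 it had 0.441 CPM, against 0.0493 and 0.105. LPL, on GRCh38 chr8:19939253-19967259, had 0, 5 and 1 reads in 2D, 2, 0 and 1 in 3D_7d and 8, 0 and 6 in 3D_14d, where a count of 0 allows a level of up to 0.0493, 0.0546 and 0.0569 CPM in these samples. In a fit without a filter on low counts, over 51726 genes, the log2 difference of CD5 from 2D was -2.22 at 7 days and -2.47 at 14 days, and neither passed (edgeR, adjusted p = 0.222 and 0.166). The unadjusted p of CD5 in this edgeR fit was 0.0357 and 0.0212. ROR1 (adjusted p = 0.395 and 0.853) and LPL (adjusted p = 0.990 and 0.637) did not pass either. With so few reads, the lack of a call for the 3 genes does not show that the groups were equal. CD5 and ROR1, by which CLL cells are recognised, were thus close to absent from the RNA of this CLL line in all 3 groups.

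**Figure D3:**
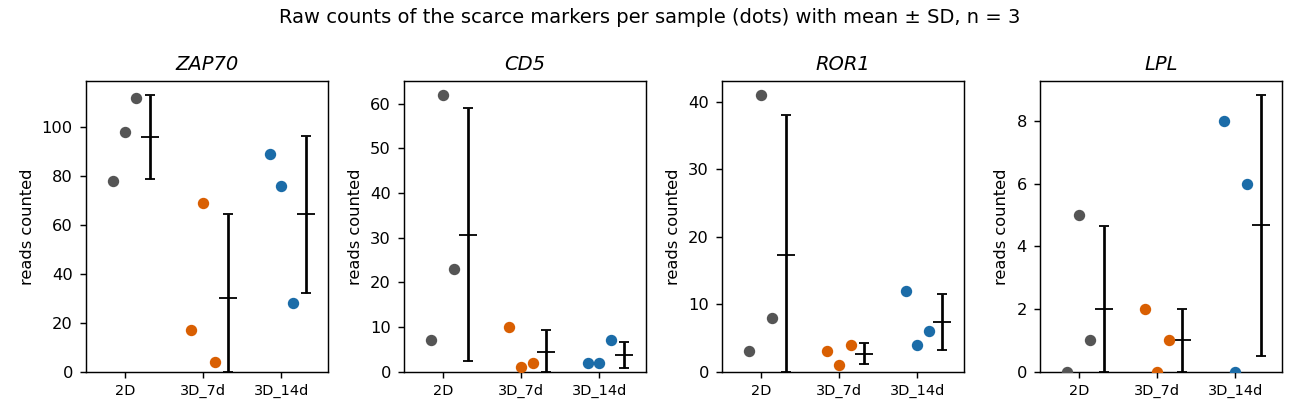
Reads counted (y axis, starting at 0) for ZAP70, CD5, ROR1 and LPL in each sample (dots) of 2D, 3D_7d and 3D_14d (x axis), with the group mean and SD (n = 3, bars cut at 0). CD5 and ROR1 reach 62 and 41 reads in 1 sample of 2D, and LPL stays at no more than 8 reads in any sample.

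The partners of the markers were described next, from a list of 42 genes whose products bind, assemble with, process or regulate them, of which 33 were tested. Against 2D, 12 rose and 2 fell at 7 days, and 16 rose and 1 fell at 14 days. From 7 to 14 days 5 rose and 1 fell. Over all genes tested 22.2% rose and 21.2% fell at 7 days, 19.0% and 17.2% at 14 days, and 14.5% and 13.6% from 7 to 14 days. The median log2 fold change of the 33 was 0.26, 0.47 and 0.08 in these comparisons, against -0.0040, 0.02 and -0.0013 over all genes, and nothing particular to the partners is read from this.

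Of 8 integrin partners and ligands of ITGA4, 7 were tested and MADCAM1 was not. Against 2D, 5 rose and none fell at 7 days, and 4 rose and none fell at 14 days. Over all genes tested 22.2% rose and 21.2% fell at 7 days, and 19.0% and 17.2% at 14 days. The list was not tested as a set. ITGB1, the beta chain of VLA-4, measured 25.1 ± 0.947 CPM in 2D, 45.2 ± 2.75 in 3D_7d and 43.0 ± 13.5 in 3D_14d, and rose by 0.85 and 0.78 on the log2 scale (adjusted p = 0.00579 and 0.0116). The call at 14 days was lost without replicate 3 of 2D and with total counts alone as the scaling (adjusted p = 0.0555 and 0.0684). Replicate 1 of 3D_14d had 27.7 CPM of ITGB1, and the other samples of its group had 48.2 and 53.2. ITGB7, the beta chain of the gut-homing integrin, measured 100 ± 5.72, 212 ± 7.89 and 208 ± 40.7 CPM, and rose by 1.08 and 1.05 (adjusted p = 0.000178 and 0.000295). In both genes each 3D sample was above each 2D sample. The adaptors that tie integrins to the cytoskeleton rose as well, TLN1 (talin) by 1.46 and 1.16 and FERMT3 (kindlin-3) by 0.39 and 0.54, where FERMT3 at 7 days passed narrowly (adjusted p = 0.0499) and was lost in 12 of 17 alternatives, among them those without any 1 sample of 2D or 3D_7d. At 14 days FERMT3 had an adjusted p of 0.0136 and was not called without replicate 1, 2 or 3 of 2D (adjusted p = 0.0522, 0.0585 and 0.0694). VCAM1, the ligand, was 0.68 higher at 7 days (adjusted p = 0.00678), and at 14 days its difference from 2D was -0.17 (adjusted p = 0.456). The rise at 7 days was not called without replicate 2 or without replicate 3 of 2D (adjusted p = 0.0552 and 0.0531). FN1 and PXN were not called, and none of the 7 fell at an unadjusted p under 0.05 or with DESeq2. Exons of ZNF740 cover 51.8% of the exonic bases of ITGB7 on the other strand, so its reads may be shared.

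The balance of the alpha chain to its beta chains was expressed as ITGA4 divided by the sum of ITGB1 and ITGB7, all in TPM, a ratio chosen after the values were seen. It was 0.398, 0.416 and 0.439 in the 2D samples, 0.180, 0.152 and 0.129 in 3D_7d and 0.0842, 0.112 and 0.179 in 3D_14d. Every 3D sample was below every 2D sample. The mean was 0.418 ± 0.0205 in 2D, 0.154 ± 0.0253 in 3D_7d and 0.125 ± 0.0485 in 3D_14d, a log2 difference from 2D of -1.45 and -1.81. Between the 3D groups the log2 difference was -0.35. These values are a description with no test, since the ratio was formed from genes already seen to move apart. Most of the sum was ITGB7, with 85.7, 160 and 137 TPM in the 3 groups against 15.4, 24.6 and 21 for ITGB1. Exons of other genes cover 51.8% of the exonic bases of ITGB7 and 21.4% of those of ITGA4, so the ratio is uncertain.

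**Figure D4:**
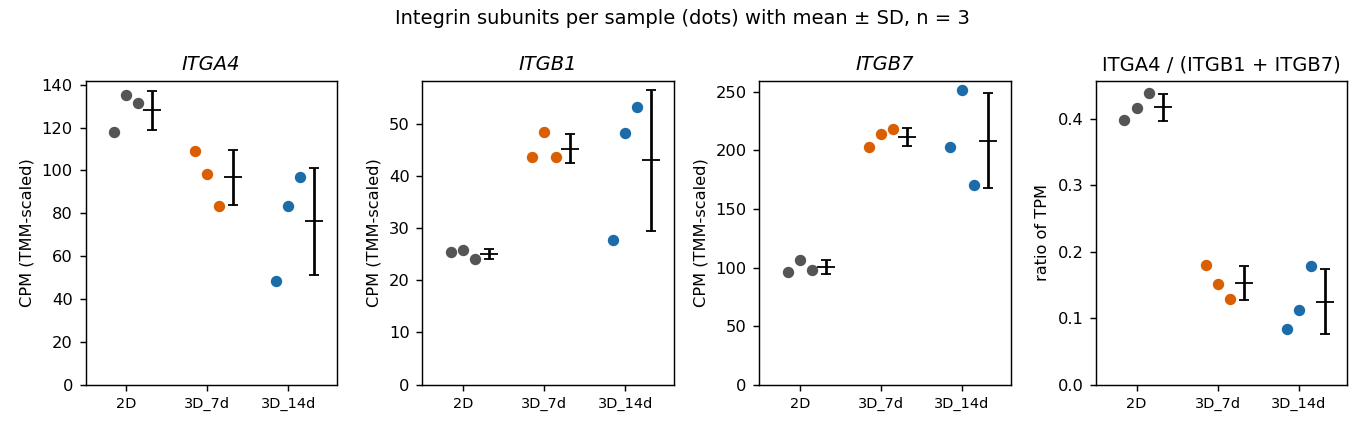
TMM-scaled CPM of ITGA4, ITGB1 and ITGB7 and the ratio of ITGA4 to the sum of both beta chains in TPM (y axes, starting at 0) in each sample (dots) of 2D, 3D_7d and 3D_14d (x axis), with the group mean and SD (n = 3). The ratio lies between 0.398 and 0.439 in 2D and between 0.0842 and 0.180 in 3D.

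Of 4 partners of CD38, 3 were tested and all of them were called against 2D at both times. Of all genes tested, 43.4% were called at 7 days and 36.2% at 14 days, and nothing particular is read from 3 genes. PECAM1 (CD31), a ligand of CD38, had 13.8 ± 1.71 CPM in 2D, 42.2 ± 7.61 in 3D_7d and 64.3 ± 16.6 in 3D_14d, with each 3D sample above each 2D sample. It rose by 1.61 at 7 days and by 2.22 at 14 days on the log2 scale (adjusted p = 0.000108 and 2.13e-05). The enzymes of NAD synthesis parted, since NMNAT1 rose by 1.27 and 0.85 (adjusted p = 0.000165 and 0.00303) while NAMPT fell by 0.54 and 0.60 (adjusted p = 0.0129 and 0.00876). BST1, the paralog of CD38, was not tested.

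Of 6 genes related to MS4A1, 5 were tested, none was called by edgeR against 2D at 7 days and 3 rose at 14 days. Of all genes tested, 43.4% were called at 7 days and 36.2% at 14 days. At 7 days 1 of the 5, MS4A7, had an unadjusted p under 0.05 (0.0248), and DESeq2 called it (adjusted p = 0.0376). SPI1 (PU.1), a factor that binds the MS4A1 promoter, had 34.5 ± 3.50 CPM in 2D, 32.6 ± 2.27 in 3D_7d and 63.8 ± 9.08 in 3D_14d, a rise of 0.89 at 14 days (adjusted p = 0.000995). POU2F2 (OCT2) rose by 0.84 (adjusted p = 0.000826), from 64.1 ± 0.994 to 115 ± 15.7 CPM, and the family member MS4A7 by 0.90 (adjusted p = 0.00680). MS4A1 itself was highest at 7 days, when SPI1 and POU2F2 differed from 2D by -0.08 and 0.20 on the log2 scale and were not called. The part of these factors in the level of MS4A1 was not tested. Of the 4 partners of FCER2 only STAT6, which mediates the induction of CD23 by interleukin-4, was called. It had 117 ± 7.93 CPM in 2D, 221 ± 10.7 in 3D_7d and 186 ± 38.4 in 3D_14d, and rose by 0.92 and 0.66 (adjusted p = 0.000695 and 0.00643). The receptor chain IL4R, the sheddase ADAM10 and the CD21 gene CR2 were not called.

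Of 5 partners of ZAP70, 3 were tested and LAT and CD247 were not. LAT had 0 reads in every sample, but exons of other genes cover 99% of its exonic bases, so its level cannot be read. SYK, the kinase that takes the place of ZAP70 in B cells, had 147 ± 3.35 CPM in 2D, 182 ± 12.8 in 3D_7d and 180 ± 23.2 in 3D_14d, and LCK, the kinase that activates ZAP70 in T cells, had 302 ± 13.3, 245 ± 13.8 and 317 ± 69.4 CPM. Neither passed the edgeR test against 2D, and nor did CBL, of which SYK at 7 days had an unadjusted p of 0.0441 and none was called by DESeq2. The log2 difference of SYK was 0.30 at 7 days and 0.29 at 14 days (adjusted p = 0.0878 and 0.113), and that of LCK was -0.30 and 0.07 (adjusted p = 0.145 and 0.761). All 3 partners of CD5 were tested, and PTPN6 (SHP-1), a phosphatase recruited by inhibitory receptors, rose by 0.97 and 1.06 on the log2 scale (adjusted p = 0.000282 and 0.000234). CD72, named as a ligand of CD5, rose by 0.90 at 14 days (adjusted p = 0.00246), with 65.0 ± 0.741 CPM in 2D, 59.5 ± 12.4 in 3D_7d and 121 ± 24.7 in 3D_14d. Among 5 partners of ROR1, 3 of which were tested, HCLS1, a cytoskeletal adaptor of blood cells, rose by 1.16 and 0.83 (adjusted p = 3.26e-05 and 0.000404), and the ligand gene WNT5B rose by 1.35 at 14 days (adjusted p = 0.0106), and was not called without replicate 3 of 2D (adjusted p = 0.0603). WNT5B had 20.99 CPM in replicate 1 of 3D_14d and 9.47 and 7.23 in the others, and without that replicate it rose by 0.76 (adjusted p = 0.0354). Of 6 partners of LPL 4 were tested. FURIN, a protease that cleaves lipoprotein lipase, rose by 1.30 and 1.64 (adjusted p = 0.00331 and 0.00106). It had 25.7, 23.3 and 19.5 CPM in 3D_7d and 46.6, 18.5 and 21.9 in 3D_14d, where replicate 1 was the highest by far. Neither call was lost in the 17 alternatives. The lysosomal lipase LIPA rose by 0.74 and 0.47 (adjusted p = 0.00290 and 0.0359). Its call at 14 days was lost in 11 of 17 alternatives, among them those without any 1 sample of 2D, without replicate 2 or 3 of 3D_7d and without replicate 2 or 3 of 3D_14d. LMF1, which LPL needs in order to fold, was lower by -1.08 on the log2 scale at 7 days (adjusted p = 0.00537) and differed from 2D by 0.02 at 14 days. The receptor of CD200, CD200R1, had 11.3 ± 0.339 CPM in 2D, 6.55 ± 0.119 in 3D_7d and 8.63 ± 5.4 in 3D_14d and was not called (adjusted p = 0.0841 and 0.402), although without replicate 1 of 3D_14d the difference of -0.80 at 7 days passed (adjusted p = 0.0102).

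The markers were set beside 20 other antigens used to type B cell leukemias, of which 18 were tested and MME and CXCR5 were not. Exons of BCL9L cover 88.6% of the exonic bases of CXCR5 on the other strand, so its reads may be shared. At 7 days 4 of the 18 rose and 7 fell against 2D, and at 14 days 8 rose and 2 fell. From 7 to 14 days 7 rose and none fell, either by edgeR, by DESeq2 or at an unadjusted p under 0.05. The shares over all genes tested were 22.2% higher and 21.2% lower at 7 days, 19.0% and 17.2% at 14 days, and 14.5% and 13.6% from 7 to 14 days. The median log2 fold change of the 18 was -0.14, 0.70 and 0.59, against -0.0040, 0.02 and -0.0013 over all genes. CD180, a surface protein of B cells related to Toll-like receptors, had 4.19 ± 0.628 CPM in 2D, 29.6 ± 4.36 in 3D_7d and 33.5 ± 11.5 in 3D_14d, and rose by 2.82 and 3.00 on the log2 scale (adjusted p = 9.27e-06 and 9.93e-06). CD27, a marker of memory B cells, rose in each step, from 201 ± 19.1 to 405 ± 35.2 and 795 ± 164 CPM, by 1.02 and 1.99 against 2D (adjusted p = 0.000403 and 9.45e-06). CD27-AS1 covers 21.4% of its exonic bases on the other strand. TNFRSF13C, the receptor for BAFF, fell by 1.08 at 7 days (adjusted p = 0.000112), from 67.1 ± 3.21 to 31.8 ± 1.76 CPM, and stood at 65.4 ± 8.36 CPM at 14 days (adjusted p = 0.868 against 2D). CD22, an inhibitory receptor of B cells, fell by 1.12 and 0.71 (adjusted p = 0.000736 and 0.0140), from 541 ± 17.5 CPM to 249 ± 52.1 and 332 ± 83.8. ITGAX (CD11c), a marker of hairy cell leukemia, was lower by -2.23 and -2.41 on the log2 scale (adjusted p = 0.00258 and 0.00227), with 14.1 ± 2.81 CPM in 2D, 3.01 ± 2.14 in 3D_7d and 2.65 ± 0.798 in 3D_14d. Without replicate 2 of 3D_7d the difference of ITGAX at 7 days was -2.88 (adjusted p = 0.00150).

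**Figure D5:**
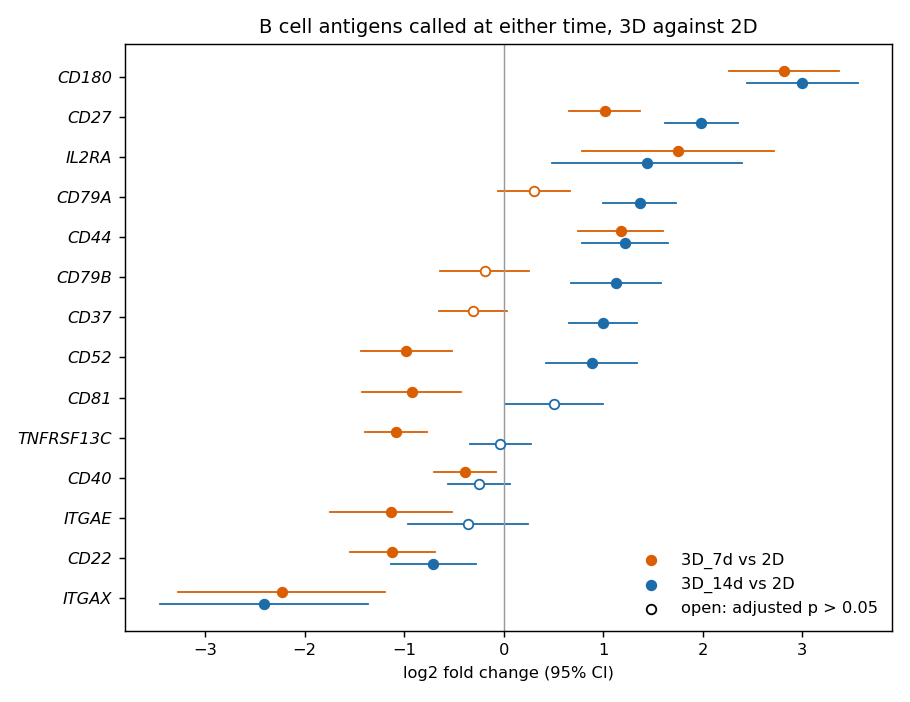
Log2 fold change against 2D with its 95% confidence interval (x axis) for the B cell antigens called in at least 1 of the comparisons (y axis) in 3D_7d and 3D_14d, with filled points for an adjusted p of at most 0.05. CD180 is at the top with 2.82 and 3.00, and ITGAX is at the bottom with -2.23 and -2.41.

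A further 13 genes are known from expression studies of CLL, and 8 of them were tested. Against 2D, 3 rose and 2 fell at 7 days, and 4 rose and 1 fell at 14 days, with a median log2 fold change of 0.30 and 0.61, beside 22.2% higher and 21.2% lower, and 19.0% and 17.2%, of all genes tested, whose medians were -0.0040 and 0.02. ADAM29, which is read together with LPL in CLL, had 3.08 ± 0.425 CPM in 2D, 10.1 ± 2.73 in 3D_7d and 8.89 ± 2.94 in 3D_14d, and rose by 1.72 and 1.53 (adjusted p = 0.000529 and 0.00149). CRY1, a clock gene, rose by 1.21 and 0.61 (adjusted p = 0.000116 and 0.00987), and at 14 days it was not called without replicate 3 of 2D (adjusted p = 0.0597). TCL1A, an oncogene that activates AKT, rose by 0.55 and 1.14 (adjusted p = 0.0376 and 0.000873), from 289 ± 17.9 to 422 ± 44.4 and 635 ± 200 CPM, and the call at 7 days was lost in 10 of 17 alternatives, among them those without any 1 sample of 2D or 3D_7d. PEG10, a gene derived from a retrotransposon, was lower by -1.11 and -1.57 (adjusted p = 0.00761 and 0.00131), with 106 ± 2.93, 49.0 ± 24.4 and 35.6 ± 9.83 CPM. NRIP1, a nuclear corepressor, was lower by -1.34 at 7 days (adjusted p = 0.0246), with -1.96 without replicate 1 of 3D_7d, a call that was lost without replicate 2 or without replicate 3 of 3D_7d (adjusted p = 0.0753 and 0.0777). CLLU1, LDOC1, SEPT10, FMOD and WNT3 were not tested.

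The genes whose profile over the 9 samples was most like that of a marker were found by Pearson's r of log2 CPM among all genes tested, and 2 are given for each as a description. All points of a profile share the libraries and their scaling, and with 3 groups a high r is easily reached. They were PUS7L and THUMPD1 for ITGA4 (both r = 0.991), GPD2 and SLC30A6 for MS4A1 (r = 0.993 and 0.992), and PLEKHF2 and LARP1B for CD200 (r = 0.985 and 0.976). For CD38 they were MORN3 and IGLV6-57 (r = 0.984 and 0.983), for FCER2 PRSS2 and CBLN2 (r = 0.985 and 0.983), and for ZAP70 LIN7B and IGF1 (r = 0.955 and 0.923). Among the markers themselves, CD38 and FCER2 (r = 0.926) and ITGA4 and CD200 (r = 0.895) were the most alike.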

How the data were processed

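RNA of 9 MEC1 samples was sequenced as single reads from SMART-Seq v4 libraries, whose kit does not mark strand. Per the labels and the submitters' processing notes, the authors trimmed reads with Trimmomatic (version 0.39), aligned them to GRCh38 with STAR (version 2.5.3a) and assigned them to genes with featureCounts (version 1.6.4). The strand setting and the treatment of reads with several alignments are not given in the sources used here. The deposited values are raw counts per gene symbol, with the exon length of each gene, and were used without change. The deposited counts summed to 54662799 to 85968686 per sample. Floors of 3 counts cover counting error only.

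The filter kept the 13463 genes that exceeded 1 CPM in 3 or more samples, out of 51726 with any count. TMM factors, 1 model with a mean per group and its quasi-likelihood tests came from edgeR (version 4.0.16) with limma (version 3.58.1) in R (version 4.3.3). Adjusted p-values are Benjamini-Hochberg values over all genes tested in a comparison. The script was also tested on simulated data for 3D_7d against 2D, with far fewer changed genes than were called in the real data. It recovered 71.7% of 99 genes changed by 1 on the log2 scale and 92.8% of 97 changed by 2. Of the genes called there, 3.01% were false. Smaller changes were not simulated. TPM was computed from counts and exon lengths.

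The 9 markers, the lists of antigens, partners and cell type markers, and the tests were chosen with earlier results of these data known. All 9 markers were named. From each list at most 2 called genes per direction and comparison with 2D were named, by smallest p, and all called partners. Genes named beyond these were chosen after their values were seen. Alternatives were DESeq2 size factors, total counts alone, TMM without immunoglobulin, ribosomal protein and mitochondrial genes, the Wald test of DESeq2 (version 1.42.0), filterByExpr, no filter, only the 6 samples of a comparison, the replicate number as a block, and leaving out each sample. Promoters were read from RefSeq on GRCh38.p14, and gene positions from the deposited table.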

Additional observations from a re-analysis of the deposited data

Results flagged for a closer look

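The difference from 2D was not the same at 7 and 14 days for 3 of the 6 tested markers, by the edgeR test of 3D_14d against 3D_7d, which called 28.1% of all genes tested. The log2 difference was 0.69 for CD38 (adjusted p = 0.0119), 0.60 for FCER2 (adjusted p = 0.0153) and -0.51 for MS4A1 (adjusted p = 0.0232). Among the B cell antigens named, it was 0.97 for CD27 (adjusted p = 0.00142) and 1.04 for TNFRSF13C (adjusted p = 0.000467). Among the CLL expression genes it was -0.59 for CRY1 (adjusted p = 0.0161) and 0.59 for TCL1A (adjusted p = 0.0392). Among the partners it was 0.61 for PECAM1 (adjusted p = 0.0459), 1.02 for CD72 (adjusted p = 0.00203), 1.10 for LMF1 (adjusted p = 0.00910), 0.64 for POU2F2 (adjusted p = 0.00653), 0.97 for SPI1 (adjusted p = 0.00115) and -0.85 for VCAM1 (adjusted p = 0.00404). The 3D_14d and 3D_7d samples overlapped for TCL1A and PECAM1, and their calls were lost in 10 and 11 of 17 alternatives. CD38 was not called without replicate 3 of 3D_7d (adjusted p = 0.0524), FCER2 without replicate 2 or 3 (0.0683 and 0.0656), MS4A1 without replicate 1 or 2 (0.0702 and 0.0756) and CRY1 without replicate 3 (adjusted p = 0.0627) of the same group. Groups of 3 samples are too small for a test of single values as outliers.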

How the results depend on the processing

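The rise of MS4A1 at 7 days and the changes of CD38, FCER2 and ITGA4 at 14 days against 2D passed in all 17 alternatives, with an adjusted p of at most 0.00735, 0.0187, 0.0434 and 0.0421. No call of a marker changed direction. The number of markers lower at 7 days was 1, and was 0 with filterByExpr, 2 with only the 6 samples, and 0 to 2 when leaving out 1 sample. The number lower at 14 days against 2D was 1, and was 2 with total counts alone, with TMM without immunoglobulin, ribosomal protein and mitochondrial genes, with DESeq2 and with no filter, and 1 to 2 when leaving out 1 sample. From 7 to 14 days the number higher was 2, and was 1 with no filter and 0 to 2 when leaving out 1 sample. The number lower was 1, and was 0 with no filter, 0 with only the 6 samples, and 0 to 1 when leaving out 1 sample. CD200 was the marker added to the number lower at 14 days against 2D under these 4 settings, with an adjusted p of 0.0412, 0.0496, 0.0342 and 0.00966 in that order of settings. Over the markers, 281 of 306 repeated tests kept their call, 10 gained it and 15 lost it. With total counts alone the median over all genes shifted to -0.16 (log2) at 7 days and -0.18 at 14 days against 2D, and 2157 genes were higher and 3575 lower at 7 days, against 2985 and 2853 with TMM, and 1604 and 3246 at 14 days, against 2557 and 2318. Ranking by CPM without length moved 11 of 27 places in the order of levels. Deviations from the group mean correlated weakly between samples with the same replicate number (r from -0.10 to 0.19 in 9 pairs, with 2 over 0.1). In 18 pairs of other numbers r was -0.135 to 0.0807, with 0 over 0.1. For 2D and 3D_14d, r was 0.185, 0.108 and 0.0931 for replicates 1, 2 and 3. The numbers were not treated as pairs in the main fit, and whether they are pairs was not tested. With the replicate block the counts of called markers did not change, CD38 rose by 0.83 at 14 days, and 2939 genes were higher and 2821 lower at 7 days. The number higher at 14 days against 2D was 2 in all alternatives but 1, and was 3 without replicate 1 of 3D_14d, where MS4A1 was added (adjusted p = 0.0115). ZAP70, CD5, ROR1 and LPL had few reads, and samples of 1 group differed widely for ZAP70, CD5 and ROR1. The cause of these differences was not tested.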
